A study of Mus musculus with 28 samples.

Results

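Calcium cycling in the ventricular cardiomyocyte was described through 10 genes, Cacna1c, Ryr2, Trdn, Casq2, Jph2, Hrc, Atp2a2, Pln, Slc8a1 and Camk2d, chosen by name from the gene table of ventricular myocardium. All 10 names matched 1 row each of the 45513 rows, and all 10 were among the 24273 genes tested after a filter on low counts. The names were chosen for the known role of their proteins, with earlier results of these data known.

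At each heartbeat calcium enters the cardiomyocyte through the L-type channel, whose pore is the product of Cacna1c, and opens the ryanodine receptor Ryr2 in the sarcoplasmic reticulum, the internal calcium store. Triadin (Trdn) and calsequestrin (Casq2) sit with the receptor on the store side, where calsequestrin binds calcium, junctophilin (Jph2) holds the store against the cell membrane, and Hrc is a further calcium-binding protein of the store. Relaxation follows when the pump SERCA2a (Atp2a2), held back by phospholamban (Pln), returns calcium to the store and the exchanger NCX1 (Slc8a1) moves it out of the cell. The kinase CaMKII delta (Camk2d) phosphorylates both the receptor and phospholamban.

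The hearts came from 28 male adult C57BL/6 mice, 1 library each, in 4 groups. Surgery at 6 weeks of age was either 5/6 nephrectomy, the model of chronic kidney disease (CKD) and a removal of most kidney tissue in 2 stages, or a sham operation. On day 7 each mouse was gavaged once with Oxalobacter formigenes (Oxf), a gut bacterium that degrades oxalate, or with culture medium (vehicle). All groups, controls included, ate a diet with 1% hydroxyproline, an oxalate precursor, and 0.5% calcium. Vehicle was given to 10 sham-operated mice and 6 with CKD, and the bacterium to 5 sham-operated mice and 7 with CKD, from a design of 10 mice per group, and the other mice were not analysed here. The p-values measure the spread between these mice. Mouse numbers in the labels ran from 901 to 910 in sham-vehicle and from 913 to 920 in CKD-vehicle. They ran from 921 to 929 in sham-Oxf and from 931 to 940 in CKD-Oxf. No block of numbers mixed groups. Any difference between groups may therefore also reflect the order of the mice, and these data do not separate them.

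Libraries held 19.8 to 65.4 M counts (M, 1e6 counts), and no member had fewer than 1478 counts in any library. Sham-Oxf replicate 1 stood apart, with a count in 15879 genes against 27128 to 33995 in the other libraries. The tissue label was checked against 10 cardiomyocyte markers: all were detected, and their summed level was 16205 to 46616 CPM (counts per 1e6 counts, scaled with TMM factors). The share of counts on the 7SL RNA rows ran from 2.39% to 24.4%, with medians of 12.0% and 16.5% in the sham and CKD vehicle groups and 3.26% and 8.86% in the sham and CKD Oxf groups. In bulk tissue, fewer cardiomyocytes and less RNA per cardiomyocyte cannot be told apart.

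The 250 bases before the RefSeq start (build GRCm38.p6) are shown for 4 members: Casq2, Pln and Hrc, whose levels moved together across libraries, and Ryr2, which moved against Casq2 and Pln. The windows are chr3:102086165-102086414 on the plus strand, chr10:53337436-53337685 on the plus strand, chr7:45335019-45335268 on the plus strand and chr13:12106946-12107195 on the minus strand. Each is written 5′ to 3′ in the direction of the gene, and capitals mark a match to a searched motif.
Casq2: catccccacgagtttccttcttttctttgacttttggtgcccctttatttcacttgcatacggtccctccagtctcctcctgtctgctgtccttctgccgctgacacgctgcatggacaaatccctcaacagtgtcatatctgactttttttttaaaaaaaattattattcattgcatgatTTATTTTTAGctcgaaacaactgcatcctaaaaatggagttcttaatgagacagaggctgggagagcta
Pln: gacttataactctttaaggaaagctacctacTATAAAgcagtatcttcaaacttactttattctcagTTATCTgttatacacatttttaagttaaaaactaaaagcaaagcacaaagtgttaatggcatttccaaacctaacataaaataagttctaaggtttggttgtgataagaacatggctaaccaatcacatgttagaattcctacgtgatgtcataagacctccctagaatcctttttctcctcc
Hrc: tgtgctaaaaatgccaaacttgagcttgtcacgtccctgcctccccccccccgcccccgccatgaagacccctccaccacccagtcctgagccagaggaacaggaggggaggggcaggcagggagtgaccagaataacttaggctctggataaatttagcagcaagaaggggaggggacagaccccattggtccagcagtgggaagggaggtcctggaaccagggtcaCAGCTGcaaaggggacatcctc
Ryr2: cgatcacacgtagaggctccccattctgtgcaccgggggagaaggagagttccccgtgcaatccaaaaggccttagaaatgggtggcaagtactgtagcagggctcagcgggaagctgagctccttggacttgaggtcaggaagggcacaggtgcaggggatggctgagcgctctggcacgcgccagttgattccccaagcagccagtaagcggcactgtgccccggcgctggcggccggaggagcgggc
The motifs were searched on both strands in the 11 such windows that the promoter table lists for 8 members, and the table holds none for Atp2a2 and Trdn. The E-box CAGCTG was found in Hrc and in both windows of Jph2, against 13% of 32851 promoters. The windows of Jph2 overlap, and their match is the same site. The GATA word AGATAA was found in Pln and Slc8a1 (9.99% of promoters) and TATAAA in Pln (12.4%). The MEF2 element, searched in its degenerate consensus form, was found in Casq2 (2.92% of promoters). The E-box CACGTG (6.02%), the MCAT word CATTCC (12.6%), the CArG element (1.47%) and the D-box words TTATGTAA and TTACGTAA (0.819% and 0.113%) were found in no member. No motif was shared by Casq2, Pln and Hrc, and no match was found in the Ryr2 window. G and C made up 32.8% of the Pln window, 41.6% of Casq2, 59.6% of Hrc and 63.2% of Ryr2, with a median of 52.4% over all promoters.

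Per kilobase of merged exons, the median level over 28 libraries was by far the highest for Atp2a2, at 686 CPM per kb (382 to 1168). Ryr2 followed at 100.3, and the ranges of these 2 genes did not overlap. Next came Hrc at 78.5, Casq2 at 64.8, Pln at 57.9, Jph2 at 47.1, Cacna1c at 30.7, Slc8a1 at 16.5, Trdn at 10.4 and Camk2d at 5.54 CPM per kb. From Ryr2 downward the ranges of all neighbours in this order overlapped. Merged exons count every annotated isoform, so the value of a gene with many isoforms, such as Camk2d with 22493 merged bases, is a low estimate.

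The members differed widely in how much they varied. Casq2 spanned 10.3-fold between its lowest and highest library (68.6 to 704 CPM), Trdn 6.42-fold, Hrc 4.60-fold and Pln 4.43-fold. Cacna1c spanned 3.71-fold, Atp2a2 3.06-fold, Jph2 2.82-fold, Ryr2 2.41-fold, Slc8a1 2.24-fold and Camk2d 1.61-fold. The within-group SD of log2 CPM was 0.67 for Casq2 and 0.12 for Camk2d, with a median of 0.28 over the 3234 genes of at least 5 mean log2 CPM. The same library, sham-Oxf replicate 2, was lowest for Casq2, Trdn, Hrc, Pln, Atp2a2 and Slc8a1, and CKD-vehicle replicate 2 was highest for Casq2, Trdn, Hrc, Atp2a2 and Camk2d.

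**Figure D1:**
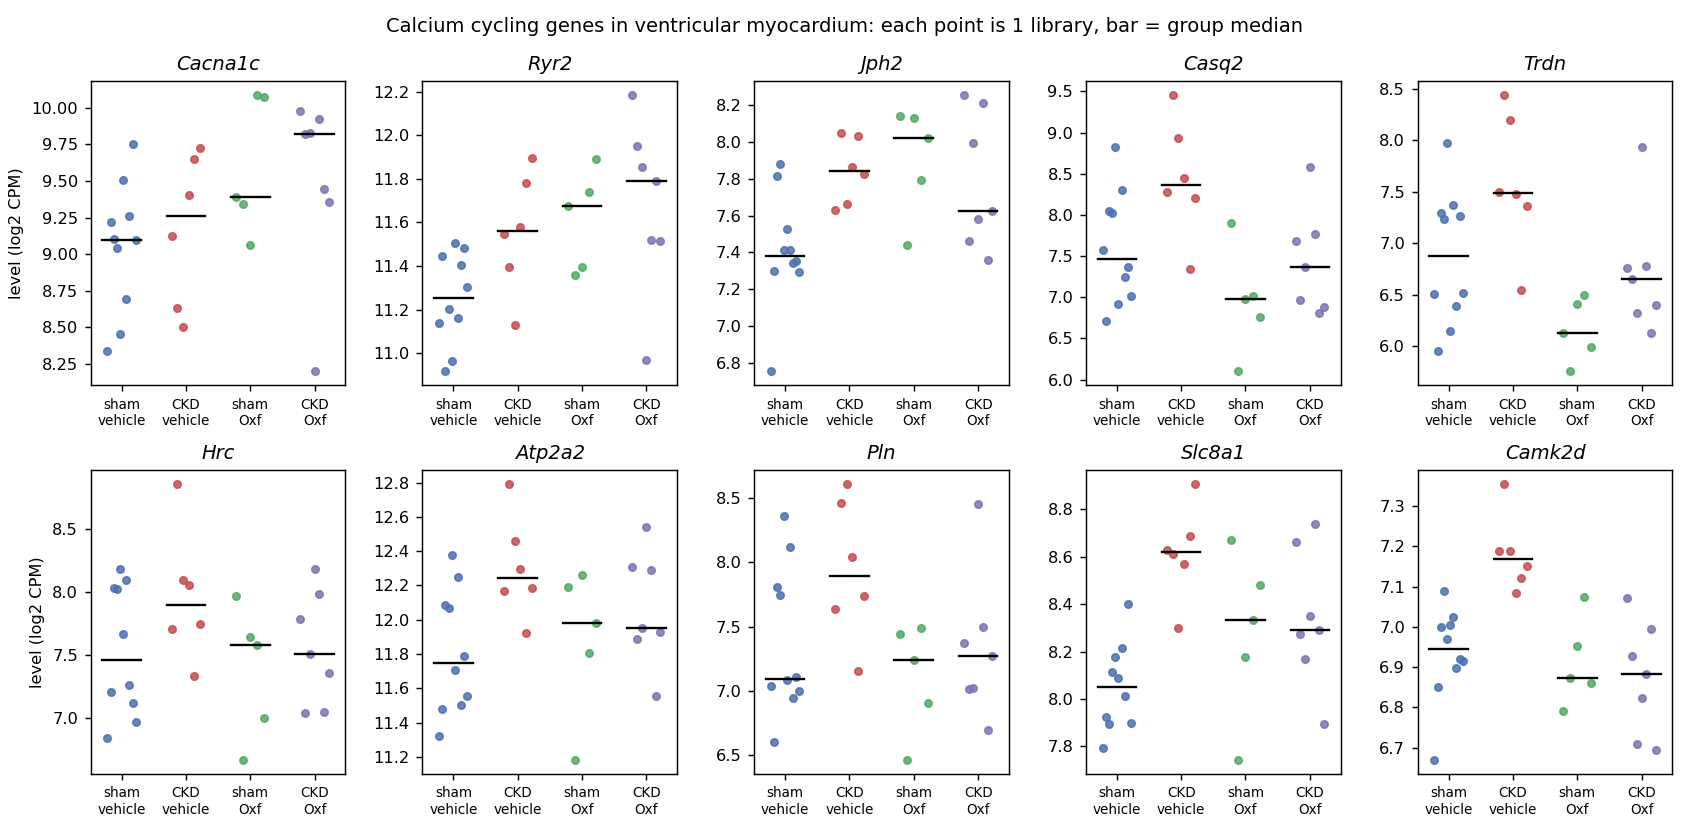
Level of each calcium cycling gene (log2 CPM, y axis) in the 4 groups (x axis), 1 point per library with a bar at the group median. Camk2d in CKD-Oxf (104 to 134 CPM) lies wholly below CKD-vehicle (136 to 164 CPM), and the other members overlap between these groups. The share of all tested genes without overlap is not given.

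The comparison of surgery alone, with no bacterium, was read from CKD-vehicle against sham-vehicle. All 10 members had a fitted log2 fold change above 0, from 0.14 in Cacna1c to 0.84 in Casq2, with a median of 0.45 against -0.03 over all tested genes. None passed an edgeR adjusted p of 0.05, which 0.00824% of all tested genes passed, so no member is called. At an unadjusted p under 0.05, 6 members were higher (Atp2a2, Casq2, Slc8a1, Camk2d, Trdn and Jph2), against 4.46% of all tested genes in either direction and 2.09% higher. The 10 fitted values are not independent, because the members vary together between libraries. Several were smaller with a library measure as covariate. With the cardiomyocyte marker score Casq2 was 0.31 instead of 0.84, Pln 0.13 instead of 0.54, Trdn 0.29 instead of 0.71, Atp2a2 0.20 instead of 0.48 and Jph2 0.26 instead of 0.41, and Hrc was -0.000243 instead of 0.43. With the clock score, described below, Casq2 was 0.20, Pln 0.18, Trdn 0.41, Atp2a2 0.28 and Hrc -0.021, while Cacna1c was 0.47 instead of 0.14. Slc8a1, Camk2d and Ryr2 moved by less than 1.5 times with either score.

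The exchanger Slc8a1 had the smallest p of the members. Its level was 222 to 338 CPM in sham-vehicle (median 265) and 315 to 481 in CKD-vehicle (393), 408, 214, 289, 323 and 358 in the sham-Oxf libraries, and 238 to 427 in CKD-Oxf (313). All 6 CKD-vehicle libraries lay above the sham-vehicle median, although the 2 ranges overlapped. The log2 fold change was 0.57 ± 0.13 (SE; edgeR unadjusted p 0.000177, adjusted p 0.447). DESeq2 (adjusted p 0.0149) and limma voom with sample weights (adjusted p 0.00887) placed it past the threshold, and edgeR placed it there in none of the 28 fits without 1 library. In this comparison DESeq2 called 29 genes in all and limma voom 55, against 2 with edgeR.

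Jph2, the tether of the release site, ran from 108 to 236 CPM in sham-vehicle (median 167) and from 198 to 264 in CKD-vehicle (229.5). It was 282, 174, 279, 222 and 259 CPM in the sham-Oxf libraries and 164 to 305 in CKD-Oxf (197). All libraries of CKD-vehicle and of sham-Oxf were above the sham-vehicle median, while the ranges overlapped. The log2 fold change was 0.41 ± 0.15 for CKD-vehicle and 0.49 ± 0.16 for sham-Oxf, each against sham-vehicle (edgeR adjusted p 0.955 and 0.222).

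The pump gene Atp2a2 stood at 2564 to 5332 CPM in sham-vehicle (median 3439) and 3877 to 7104 in CKD-vehicle (4843), 4673, 2323, 4912, 3573 and 4047 in the sham-Oxf libraries, and 3013 to 5963 in CKD-Oxf (3962). All 6 CKD-vehicle libraries exceeded the sham-vehicle median, and all 4 groups overlapped. The difference between CKD-vehicle and sham-vehicle was 0.48 ± 0.19 on the log2 scale (edgeR adjusted p 0.955). Summed cardiomyocyte markers moved the same way, with a median of 25992 CPM in sham-vehicle and 30898 in CKD-vehicle, and 10 of 10 of them had a fold change above 0. Their part in the result was not tested.

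The bacterium in CKD hearts was read from CKD-Oxf against CKD-vehicle. This comparison uses the same CKD-vehicle libraries as the one before it, so the 2 sets of fold changes are not independent. Of the members, 8 had a fold change below 0 and 2 above, with a median of -0.29 against 0.03 over all tested genes. None passed an adjusted p of 0.05 in edgeR, which 0.033% of all tested genes did. Casq2, Trdn and Camk2d were lower at an unadjusted p under 0.05, which 13.1% of all tested genes reached, 6.2% on the lower side.

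Camk2d, the CaMKII delta gene and the least variable member, was the 1 member whose ranges in these groups did not overlap. The share of all tested genes without overlap is not given here, so this is not read as particular to Camk2d. Its level was 102 to 136 CPM in sham-vehicle (median 123) and 136 to 164 in CKD-vehicle (144), 111, 117, 124, 135 and 116 in the sham-Oxf libraries, and 104 to 134 in CKD-Oxf (118). CKD-vehicle was the highest group and the other 3 overlapped broadly. The log2 fold change of CKD-Oxf against CKD-vehicle was -0.31 ± 0.09 (edgeR unadjusted p 0.00156, adjusted p 0.197). DESeq2 (adjusted p 0.00849) and limma voom (adjusted p 0.0118) placed it past the threshold. In this comparison DESeq2 called 190 genes in all and limma voom 3620, against 8 with edgeR.

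Casq2, the calcium buffer of the store, was at 105 to 452 CPM in sham-vehicle (median 177) and 163 to 704 in CKD-vehicle (330.4), 239, 68.6, 126, 129.5 and 108 in the sham-Oxf libraries, and 112 to 384 in CKD-Oxf (165). In CKD-Oxf 6 of 7 libraries were below the CKD-vehicle median, and replicate 4 was the exception. The log2 fold change was -1.03 ± 0.35 (edgeR adjusted p 0.247). Without CKD-Oxf replicate 4 it was -1.31 (edgeR adjusted p 0.0377), Trdn was -1.19 (0.0358) and Camk2d was -0.30 (0.04997), so that 3 members were called. Without that library the number of genes called in all was 927, against 8 with it. Casq2, Trdn and Camk2d each passed in only this 1 of the 28 fits without 1 library.

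Pln, the brake on the pump, was 97.3 to 328 CPM in sham-vehicle (median 137) and 143 to 391 in CKD-vehicle (239), 174, 88.3, 151, 179.6 and 119.7 in the sham-Oxf libraries, and 104 to 351 in CKD-Oxf (154). Again 6 of 7 CKD-Oxf libraries were below the CKD-vehicle median and replicate 4 was above it. The difference was -0.59 ± 0.29 (edgeR adjusted p 0.384). Hrc was 114 to 291 CPM in sham-vehicle and 161 to 466 in CKD-vehicle. It was 101 to 250.3 CPM among sham-Oxf libraries and 131 to 291 in CKD-Oxf, with overlap between all groups and no unadjusted p under 0.05 in any comparison.

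The bacterium in sham hearts was read from sham-Oxf against sham-vehicle. Here 5 members had a fold change above 0 and 5 below, with a median of 0.03 against -0.04 over all tested genes. None was called, and 0% of all tested genes passed (12.6% reached an unadjusted p under 0.05, and DESeq2 called 131 genes and limma voom 32). At that unadjusted level the entry channel Cacna1c, the receptor Ryr2 and Jph2 were higher (6.6% of all tested genes) and Trdn was lower (5.98%).

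Ryr2 was at 1933 to 2911 CPM in sham-vehicle (median 2443) and 2242 to 3811 in CKD-vehicle (3023), 3272, 2622, 2697, 3419.6 and 3799.8 in the sham-Oxf libraries, and 2005 to 4658 in CKD-Oxf (3541). All 5 sham-Oxf libraries exceeded the sham-vehicle median, with overlapping ranges. Its log2 fold change there was 0.36 ± 0.16 (edgeR adjusted p 0.359). Cacna1c was at 323 to 864 CPM in sham-vehicle (median 549) and 362 to 847 in CKD-vehicle (617), 671, 648, 535, 1089 and 1076 in the sham-Oxf libraries, and 294 to 1007 in CKD-Oxf (905). In sham-Oxf 4 of 5 libraries exceeded the sham-vehicle median, and the lowest library of all was CKD-Oxf replicate 4. The sham-Oxf difference was 0.54 ± 0.25 (edgeR adjusted p 0.366).

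CKD-Oxf against sham-Oxf gave no member with an unadjusted p under 0.05 in edgeR, which 8.23% of all tested genes reached, and 0% of all tested genes were called (DESeq2 called 100 genes, none a member). Of the members, 7 were above 0 and 3 below. For the interaction, the difference between the Oxf effects in CKD and sham hearts, all 10 members were below 0 with a median of -0.27 against 0.07 over all tested genes. Slc8a1 (-0.52 ± 0.20), Jph2 (-0.52 ± 0.23) and Camk2d (-0.28 ± 0.12) had an unadjusted p under 0.05, which 3.55% of all tested genes reached, 2.07% on the lower side. Their edgeR adjusted p was 1, and 0% of all tested genes were called.

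Averaged over surgery, 1 member changed with the bacterium: Trdn fell by 0.85 ± 0.22 on the log2 scale (edgeR unadjusted p 0.000726, adjusted p 0.0421). In this comparison 2.81% of all tested genes were called, and 1.54% were called lower. A single call among 10 members is read against that background and shows nothing particular to them. Trdn was 61.9 to 251 CPM in sham-vehicle (median 121) and 93.3 to 347 in CKD-vehicle (179), 70.1, 54.0, 84.9, 90.4 and 63.8 in the sham-Oxf libraries, and 69.7 to 245 in CKD-Oxf (100.4). All 5 sham-Oxf libraries were below the sham-vehicle median and 6 of 7 CKD-Oxf libraries below the CKD-vehicle median, with overlapping ranges in both. The separate log2 fold changes were -0.81 ± 0.32 in sham and -0.88 ± 0.31 in CKD hearts (edgeR adjusted p 0.294 and 0.262).

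The call of Trdn was near the threshold. It was lost in 17 of the 28 fits that left out 1 library (edgeR adjusted p from 0.00326 to 0.0864), with log2 fold changes from -1.01 to -0.75. It was also lost with no filter on low counts (adjusted p 0.0816) and with the clock score (0.837), the cardiomyocyte marker score (0.0672) or the log2 7SL share (0.360) as a covariate. The fold change was -0.88 with no filter, -0.49 with the clock score, -0.50 with the marker score and -0.29 with the 7SL share. The 8 tested skeletal muscle markers, a tissue that also uses triadin, were all below 0 in this comparison with a median of -2.45, and 1 was called. Acta1 and Ckm in that list are also expressed in heart muscle. The summed level was 115 to 946 CPM in vehicle hearts and 115 to 485 CPM in Oxf hearts, and its part in the result was not tested.

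Casq2 had an averaged fold change of -0.85 ± 0.25 (edgeR adjusted p 0.0559), Pln -0.46 ± 0.20 (0.174) and Camk2d -0.17 ± 0.06 (0.115). Ryr2 had 0.26 ± 0.12 (edgeR adjusted p 0.192) and Cacna1c 0.45 ± 0.18 (0.139). These 5 and Trdn were the 6 members with an unadjusted p under 0.05, 4 lower and 2 higher, which 23% of all tested genes reached (11.5% in each direction). Without CKD-Oxf replicate 4, Casq2 (-1.0), Pln (-0.61), Cacna1c (0.51) and Trdn (-1.01) were all called, 4 members in place of 1, while the number of all tested genes called was 3362 in place of 681. Without sham-Oxf replicate 1, the library with few detected genes, Casq2 was -1.01 (edgeR adjusted p 0.0361). Over the 28 fits without 1 library, Casq2 passed in 6, and Pln and Cacna1c passed in 1 each.

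Averaged over gavage, all 10 members were higher after nephrectomy in their fitted value, with a median of 0.30, and none passed an adjusted p of 0.05 in edgeR (0% of all tested genes passed, and 10.6% reached an unadjusted p under 0.05, 5.17% on the higher side). Trdn (0.68 ± 0.22), Slc8a1 (0.31 ± 0.10), Casq2 (0.67 ± 0.25) and Atp2a2 (0.32 ± 0.14) were the 4 members with an unadjusted p under 0.05. Their adjusted p ran from 0.306 for Trdn to 0.434 for Atp2a2. DESeq2 called 113 genes and limma voom 125 here, none a member.

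**Figure D2:**
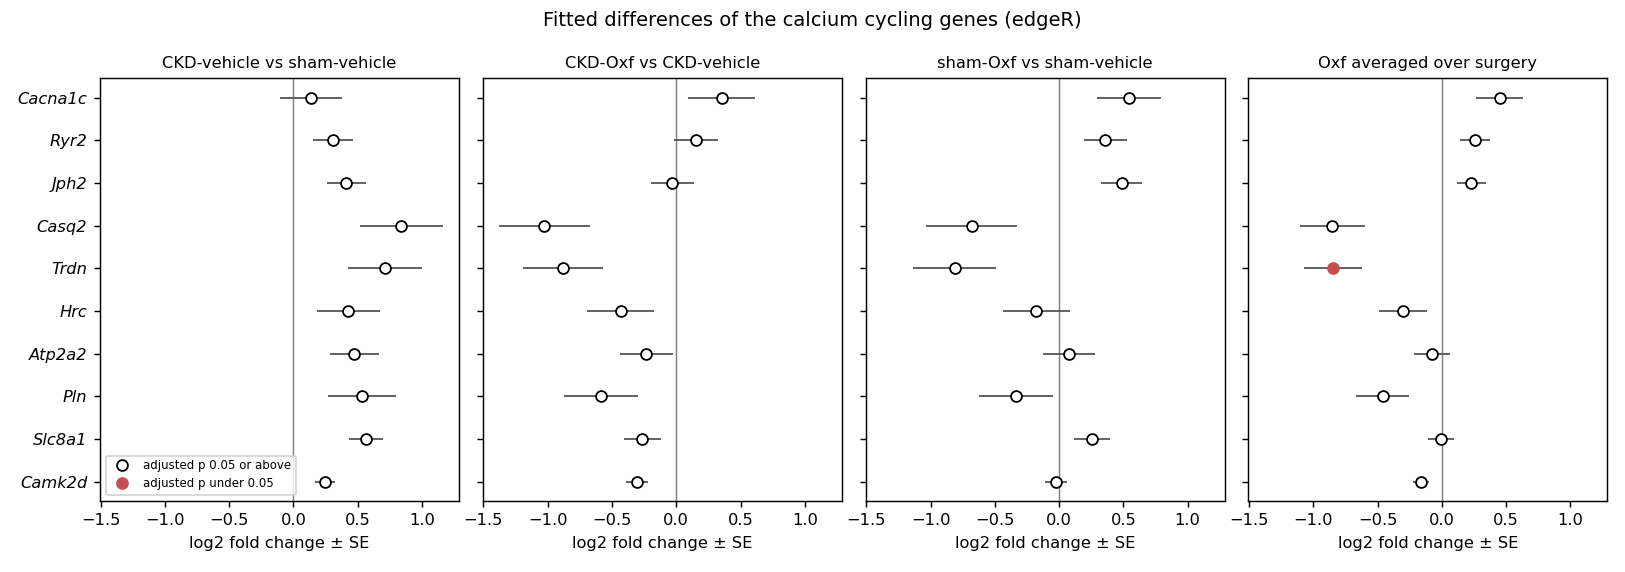
Fitted log2 fold change (x axis, bars are SE) of each member (y axis) in 4 comparisons, with a filled red point where the edgeR adjusted p is under 0.05. Only Trdn in the averaged Oxf comparison is filled, at -0.85.

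The clock score differed between the same groups. This score is the mean level of clock genes such as Dbp and Per1 minus that of genes of the opposite phase such as Arntl. Its median was 2.22 and 0.91 log2 units in the sham and CKD vehicle groups and 4.23 and 3.58 in the sham and CKD Oxf groups. The difference of CKD-Oxf from CKD-vehicle was 2.51, with an exact two-sided permutation p of 0.000583, the smallest this design can give (adjusted p 0.00932 over 16 tests of library measures). In sham hearts the difference of Oxf from vehicle was 1.6 (exact permutation p 0.00999, adjusted p 0.0799). In vehicle hearts CKD was 1.48 below sham (exact permutation p 0.018, adjusted p 0.0959). Scores ran from 2.39 to 4.07 in CKD-Oxf against -0.10 to 2.31 in CKD-vehicle, with no overlap, so clock score and gavage cannot be told apart in CKD hearts, while in sham hearts the groups overlapped (3.24 to 4.47 with Oxf, 0.98 to 4.23 with vehicle). With the score as a covariate, no member and 0 genes in all were called for the averaged Oxf comparison.

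Other genes of calcium handling were taken from 5 lists with 72 genes, of which 70 were tested. The libraries are of bulk tissue, so the cell type in which a listed gene changed is not known. In the averaged Oxf comparison 5 of 70 were called, 3 higher and 2 lower, beside 2.81% of all tested genes (1.26% higher, 1.54% lower), and none was called in the other 6 comparisons. The lists' median log2 fold change there was -0.08, against 0.00312 over all tested genes.

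Among 12 genes of calcium entry, 1 rose: Ahnak, a large scaffold protein linked to the L-type channel, by 0.37 ± 0.09 (edgeR adjusted p 0.0295), with medians of 2839, 2545, 3434 and 3705 CPM in sham-vehicle, CKD-vehicle, sham-Oxf and CKD-Oxf. Both Oxf medians were above both vehicle medians. Of 17 partners of the release site, Itpr3, an inositol trisphosphate receptor, rose by 0.57 ± 0.13 (edgeR adjusted p 0.0294; medians 48.4, 37.7, 55.5 and 65.5 CPM in the same order). Calm2, 1 of the genes for calmodulin, fell by 0.50 ± 0.13 (edgeR adjusted p 0.043; medians 34.7, 38.2, 22.6 and 24.1 CPM).

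Of 7 tested partners of uptake and storage, 1 rose: Atp2a3, the gene of the SERCA3 pump, by 0.46 ± 0.11 (edgeR adjusted p 0.0341; medians 33.2, 29.5, 35.0 and 45.2 CPM). Of 22 kinases and phosphatases, 1 fell: Ppp1cb, a catalytic subunit of protein phosphatase 1, by 0.76 ± 0.19 (edgeR adjusted p 0.0351; medians 102, 136, 63.1 and 77.0 CPM). None of 12 genes of extrusion and mitochondrial calcium was called. For each of the 5 pairwise or averaged comparisons with no call in these lists, the gene with the smallest p is given. It was Srl, sarcalumenin of the store, for CKD-vehicle against sham-vehicle (0.65 ± 0.17, edgeR adjusted p 0.638), with 105 to 203 CPM in sham-vehicle and 184 to 354 in CKD-vehicle. For surgery averaged over gavage it was Rrad, a small GTPase that holds back the L-type channel (0.56 ± 0.16, edgeR adjusted p 0.238), with medians of 51.2 and 86.3 CPM after vehicle and 48.1 and 68.5 CPM after Oxf in sham and CKD hearts. For CKD-Oxf against CKD-vehicle it was Atp2a3 (0.71 ± 0.16, edgeR adjusted p 0.139), with 23.8 to 31.9 CPM in CKD-vehicle and 39.1 to 59.9 in CKD-Oxf. Calm2 had the smallest p for sham-Oxf against sham-vehicle (-0.64 ± 0.19, edgeR adjusted p 0.201) and for CKD-Oxf against sham-Oxf (0.38 ± 0.20, adjusted p 0.653).

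The joint variation of the members was measured within groups, on log2 CPM minus the group mean over 28 libraries. For a principal component analysis these values were not scaled to equal variance. The most variable members thus weigh most (within-group SD 0.67 for Casq2, 0.12 for Camk2d). Most of the variance lay along 1 direction: component 1 took up 73.5% of it, component 2 took up 15.7%. The first was weighted on Casq2 (0.539), Trdn (0.460), Pln (0.439), Hrc (0.371) and Atp2a2 (0.265), with Cacna1c (-0.257) and Ryr2 (-0.148) of the opposite sign. The second was led by Cacna1c (0.689), Jph2 (0.424), Slc8a1 (0.337) and Ryr2 (0.315). The members were thus not 1 block: store and pump genes moved together, and the entry channel moved with the receptor.

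Of 45 pairs, 20 passed an adjusted permutation p of 0.05, 14 positive and 6 negative. The 10 pairs among Atp2a2, Pln, Casq2, Trdn and Hrc were all positive, from r = 0.73 (Trdn and Hrc) to r = 0.92 (Pln and Casq2). For Pln and Casq2, Spearman rho was 0.91, each permutation p was 1e-05, the smallest that 100000 draws can give, the adjusted p was 5e-05, and r was 0.90 without the 2 farthest libraries. Within groups r of this pair was 0.96 in sham-vehicle, 0.94 in CKD-vehicle and 0.92 in CKD-Oxf, and none was computed over the 5 sham-Oxf libraries. Casq2 and Trdn, whose proteins bind each other, had r = 0.88 and rho = 0.88 (permutation p 1e-05 each, adjusted p 5e-05, r = 0.83 without the 2 farthest).

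The channel and the receptor, Cacna1c and Ryr2, had r = 0.84 and rho = 0.80 (permutation p 2e-05 each, adjusted p 9e-05), and r was 0.78 without the 2 farthest libraries. Each was negatively related to store genes. Ryr2 and Pln had r = -0.62 and rho = -0.52 (permutation p 0.00109 and 0.00742, adjusted p 0.00395, r = -0.46 without the 2 farthest). Ryr2 and its partner on the store side, Trdn, had r = -0.61 and rho = -0.51 (permutation p 0.00128 and 0.00872, adjusted p 0.00411, r = -0.57 without the 2 farthest). Ryr2 and Casq2 had r = -0.53 and rho = -0.51 (permutation p 0.00567 and 0.00849, adjusted p 0.0142, r = -0.52 without the 2 farthest).

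Ryr2 and Casq2 were negatively related within each group with at least 6 libraries, at r = -0.83 in sham-vehicle, -0.72 in CKD-vehicle and -0.58 in CKD-Oxf. Cacna1c was also negatively related to Pln (r = -0.56), Casq2 (r = -0.55) and Trdn (r = -0.54), but the rank correlations of Cacna1c with Pln and with Trdn were -0.35 each and did not pass (adjusted p 0.123 each), nor did that with Casq2 (-0.44, adjusted p 0.0574). CKD-Oxf replicate 4 carried part of this: without it 21 pairs passed, 19 positive and 2 negative (Pln with Ryr2 and Ryr2 with Trdn). The r of Ryr2 and Casq2 was then -0.42 (adjusted p 0.0734), and those of Cacna1c with Pln, Casq2 and Trdn were -0.41, -0.44 and -0.38, none past the threshold. The remaining positive pairs were Jph2 with Atp2a2 (r = 0.61), Hrc (0.60) and Slc8a1 (0.53), and Camk2d passed with no other member.

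**Figure D3:**
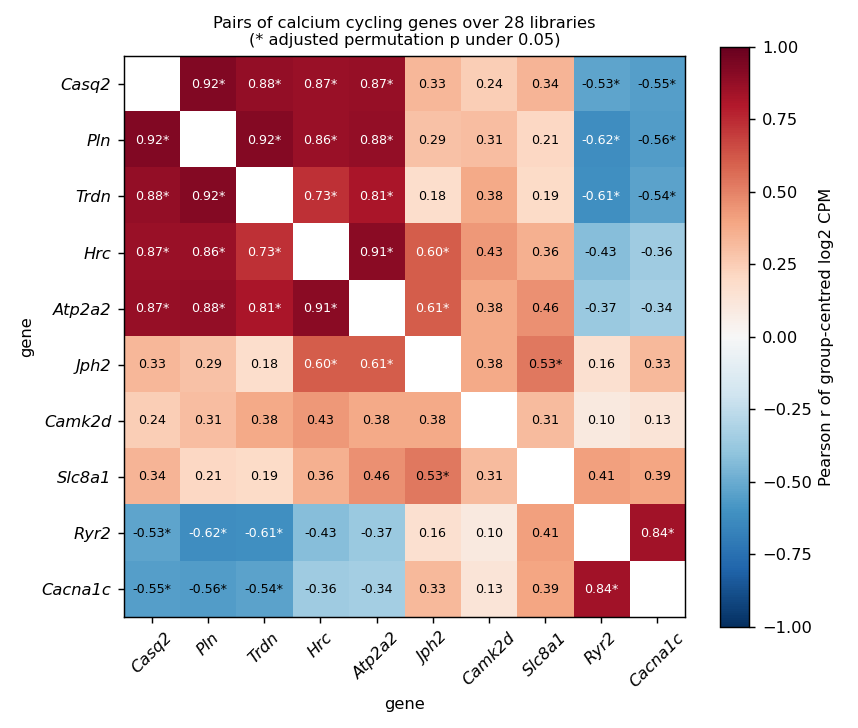
Pearson r between each pair of members (both axes) over 28 libraries after removal of group means, with a star where the permutation p adjusted over 45 pairs is under 0.05. Casq2, Pln, Trdn, Hrc and Atp2a2 form a positive block with r of at least 0.73, and Ryr2 with Cacna1c has r = 0.84.

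The shared direction followed 2 measures of the libraries that do not use the members. With the cardiomyocyte marker score, the mean log2 CPM of 10 sarcomere and myoglobin genes, r was 0.95 for Hrc, 0.91 for Atp2a2, 0.88 for Pln, 0.86 for Casq2, 0.80 for Trdn and 0.65 for Jph2. With the 7SL share, r was 0.83 for Casq2, 0.77 for Trdn, 0.72 for Pln, 0.67 for Atp2a2 and 0.60 for Hrc. Each of these 11 relations passed over 40 tests, with rho from 0.61 to 0.94, adjusted permutation p from 6.67e-05 to 0.00782 and r from 0.61 to 0.94 without the 2 farthest libraries. No member passed with the clock score or with the mitochondrial share.

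Ryr2, Cacna1c, Slc8a1 and Camk2d passed with none of the 4 measures. Ryr2 had r = -0.38 with both the marker score (rho = -0.39, permutation p 0.0473 and 0.0462, adjusted p 0.0938, r = -0.41 without the 2 farthest) and the 7SL share (rho = -0.34, permutation p 0.0709 and 0.0951, adjusted p 0.123, r = -0.30 without the 2 farthest). When the marker score was subtracted from every member, 20 pairs passed, 18 positive and 2 negative. Subtracting 1 common score can itself make members that vary less than it positively related. The within-group SD was 0.12 for Camk2d, and the score had SDs of 0.43 to 0.59 in the 4 groups. The count of positive pairs is therefore not read as relations that remain. Most relations with Hrc and Atp2a2 were then small, such as 0.08 for Atp2a2 with Casq2 and -0.09 for Trdn with Hrc. What sets the shared direction was not tested.

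**Figure D4:**
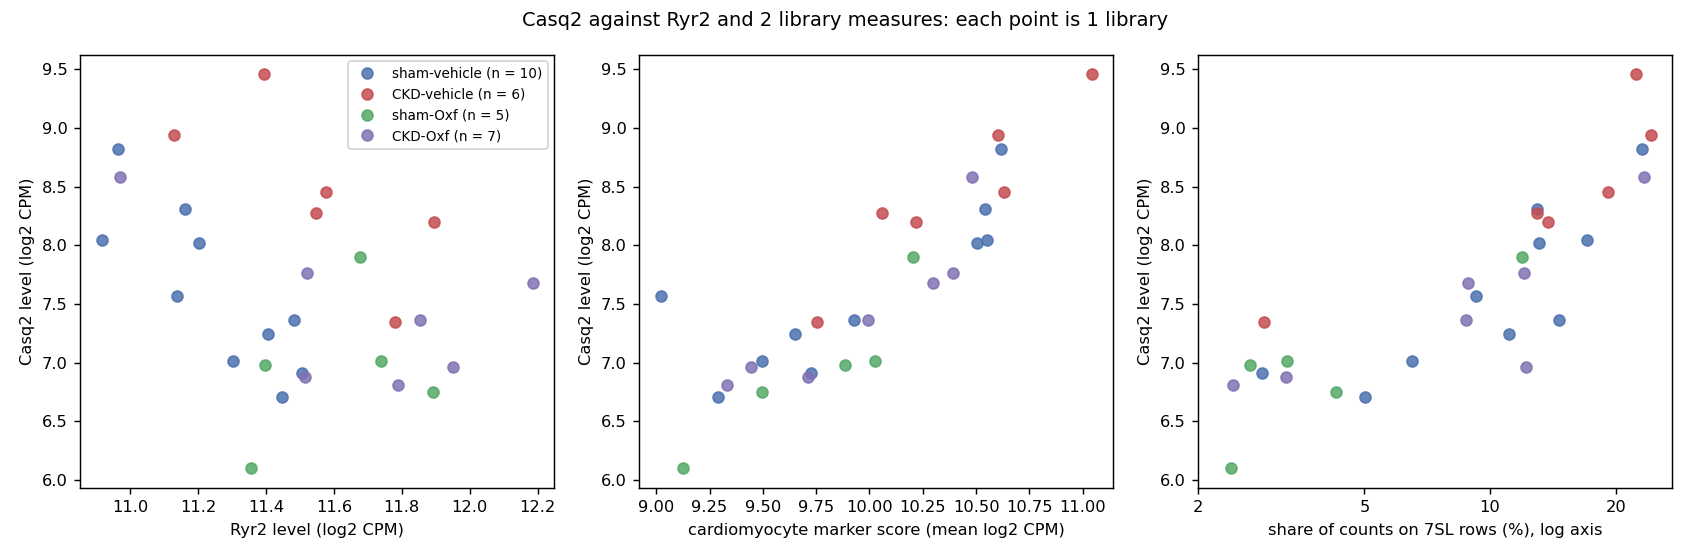
Casq2 level (log2 CPM, y axes) against Ryr2 level, the cardiomyocyte marker score and the 7SL share of counts (x axes), 1 point per library coloured by group. After removal of group means r is -0.53, 0.86 and 0.83.

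Many genes outside calcium handling shared the pattern. Among 8781 other tested genes whose mean was 3 log2 CPM or more, 22.8% had r above 0.7 with Pln, 21.1% with Casq2, 20.3% with Trdn, 18.3% with Atp2a2 and 15.9% with Hrc. Of the same genes 16.6% were as close to Cacna1c and 12.0% to Ryr2. Only 1.7% were as close to Jph2, 0.638% to Slc8a1 and 0.0114% to Camk2d. The positive block is therefore not particular to calcium genes in these libraries.

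The 2 genes most like each member show the same. They were Atp5f1 (r = 0.98) and the pseudogene Atp5l2-ps (0.98) for Pln, Ndufs4 (0.97) and Psmb5 (0.97) for Casq2, Pkm (0.97) and the pseudogene RP24-418L21.1 (0.97) for Hrc, Gbas (0.95) and Slc25a11 (0.95) for Atp2a2, and Emc2 (0.96) and Smarca5 (0.95) for Trdn. For Ryr2 they were Epg5 (0.91) and Zmym3 (0.90), for Cacna1c Coro6 (0.97) and Mast2 (0.96), for Jph2 Dusp8 (0.88) and Golga4 (0.87), for Slc8a1 Mia2 (0.87) and Trim55 (0.80), and for Camk2d Camta1 (0.70) and Cyfip2 (0.68). Each r is over 28 libraries that differ in depth and composition, and both genes of a pair share those of each library.

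Likeness to several members depended on gene length. Over 8137 protein-coding genes cut into 4 equal classes of merged exon length, the median r with Casq2 was 0.55 in the shortest (93 to 3583 bases), 0.12 and -0.11 in the middle classes and -0.31 in the longest (8121 to 123179 bases). For Ryr2 the order was the reverse, from -0.41 in the shortest to 0.32 in the longest class, and for Cacna1c from -0.39 to 0.36. Casq2 (2736 bases), Pln (2759) and Hrc (2566) belong to the shortest class, and Ryr2 (28790), Cacna1c (21191), Camk2d (22493) and Slc8a1 (18807) to the longest. Camk2d and Slc8a1 did not share the order of Ryr2. The Spearman correlation of r with exon length was 0.36 for Ryr2, 0.34 for Cacna1c, -0.21 for Camk2d and -0.033 for Slc8a1. Atp2a2 (6081) belongs to a middle class, with a median r of 0.55 in the shortest class and -0.03 in its own. Trdn, with 9352 merged bases over all annotated isoforms, belongs to the longest class. Its median r was 0.55 with genes of the shortest class and -0.27 with those of the longest.

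The same order of lengths appeared in the fold changes. In the averaged Oxf comparison the median log2 fold change was -0.13 in the shortest class and 0.03, 0.06 and 0.08 in the next ones. Trdn was at -0.85, where the median of its class was 0.08, and Casq2 was at -0.85, where that of its class was -0.13. Merged exons count every annotated isoform, so the class of Trdn may not be that of its transcript in heart. Whether length or RNA state contributed to the members' differences was not tested.

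**Figure D5:**
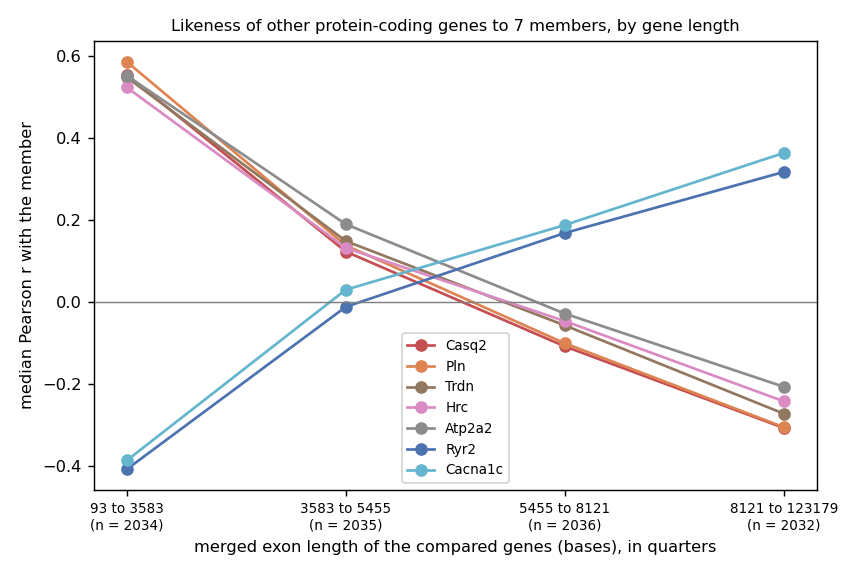
Median Pearson r (y axis) between 7 members and other protein-coding genes in classes of merged exon length (x axis, bases, with the number of genes). The 5 store and pump genes fall from 0.52 to 0.59 in the shortest class to below -0.20 in the longest, and Ryr2 and Cacna1c rise from about -0.4 to above 0.3.

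A ratio of 2 members within a library removes only what both share to the same degree. Ryr2 and Casq2 had weights of opposite sign on component 1 (-0.148 and 0.539), so their ratio keeps that direction. The ratio of Atp2a2 to Pln (0.265 and 0.439) keeps part of it. The log2 ratio of Ryr2 to Casq2, receptor to buffer, had medians of 3.85 and 3.20 in the sham and CKD vehicle groups and of 4.72 and 4.51 in the sham and CKD Oxf groups. The Oxf group exceeded the vehicle group by 1.14 in CKD hearts (exact two-sided permutation p 0.0484) and by 1.01 in sham hearts (exact permutation p 0.037), with an adjusted p of 0.207 for both over 16 tests. The groups overlapped in both comparisons.

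The log2 ratio of Atp2a2 to Pln, pump to brake, had medians of 4.44, 4.39, 4.75 and 4.86 in the same order. The Oxf group was higher by 0.37 in CKD hearts (exact permutation p 0.0519) and by 0.34 in sham hearts (exact permutation p 0.044), again with an adjusted p of 0.207 for both. Without CKD-Oxf replicate 4 the CKD-Oxf differences were 0.48 for this ratio and 1.45 for Ryr2 to Casq2, each with an adjusted p of 0.0346 (exact permutation tests). The ratios of Slc8a1 to Atp2a2 and of Trdn to Casq2 differed by at most 0.16 in any of the 4 comparisons, with exact permutation p of at least 0.289. The log2 ratio of Trdn to Casq2 had group medians from -0.82 to -0.57, and within sham-Oxf it ranged from -1.77 to -0.34.

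Of 30 relations between members and the number of the mouse in the labels, within the 3 groups of at least 6 mice, none passed (smallest adjusted permutation p 0.733, and 0 with an unadjusted p under 0.05). With 6 to 10 mice a group this shows no absence of relation: in CKD-vehicle r ran from -0.66 for Camk2d (rho = -0.71, exact permutation p 0.129 and 0.136, r = -0.41 without the 2 farthest) to 0.74 for Cacna1c (rho = 0.77, exact permutation p 0.117 and 0.103, r = 0.96 without the 2 farthest). These tests lie within groups, so they do not address mouse number as a source of differences between groups. The clock score of the lowest and highest numbered mouse was 0.98 and 3.77 in sham-vehicle and -0.000556 and 1.91 in CKD-vehicle. It was 3.24 and 4.47 in sham-Oxf and 2.39 and 3.73 in CKD-Oxf. The relation of the clock score to mouse number was not tested. Some member rows overlap other annotated genes. Pln, on chromosome 10 (53337667 to 53345987, GRCm38, plus strand), shares 1644 exon bases with Gm47644 on the opposite strand and 141 with Cep85l. Trdn, on chromosome 10 (33080554 to 33476709, plus strand), has the antisense gene D830005E20Rik within it, with no exon base in common. Whether counting used strand is not given in the sources used here, so reads of Pln and Gm47644 may be mixed, with 30272 counts for the latter over all libraries against 213355 for Pln.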

How the data were processed

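Total RNA of ventricular myocardium was sequenced on an Illumina instrument, per the labels' protocols. The authors deposited raw gene counts as 1 table, whole numbers that sum to 19.8 to 65.4 M (1e6) per library. The submitters' processing notes name FastQC 0.11.7, MultiQC 1.9, STAR 2.6.1d, Subread with featureCounts 1.6.3 and the build mm10, with no role or order. The annotation and the use of strand are not given in the sources used here. All columns were mapped to samples (0 left unmapped), and positions and merged exon lengths came from GENCODE M21 (GRCm38) by gene identifier.

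The robust quasi-likelihood F test of edgeR 4.0.16 (R 4.3.3) was run on TMM-scaled counts (28 libraries in 1 fit of 4 group means, filterByExpr with a minimum count of 10, 24273 genes). Benjamini-Hochberg adjustment ran over all 24273 genes, with 0.05 as threshold, and log2 CPM uses a prior count of 2. Alternatives were DESeq2 1.42.0, limma 3.58.1 voom, other scaling, filters and covariates, and leaving out each library. Group differences of single values used exact permutation tests, and correlations used 100000 permutations (scipy 1.17.1). The edgeR steps were tested on simulated data.

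The members, gene lists and tests were chosen with earlier results of these data known. All 10 members are named. Of the other lists a gene is named where it passed the threshold (at most 6 per comparison), and otherwise the gene with the smallest p. Among genes of at least 3 mean log2 CPM, the 2 with the highest r are named for each member. Replicates are numbered in the order of the records.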

Additional observations from a re-analysis of the deposited data

Results flagged for a closer look

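The following libraries lay far from the rest of their group, measured as the gap to the nearest library divided by the group's range (Dixon's test at the 95% level). Among 56 such comparisons chance would give about 2.8, or 1 in 20, and 5 were found.

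CKD-Oxf replicate 4 gave 3 of the 5. It had the lowest Cacna1c of its group (294 CPM, gap 0.65 of the range), the highest Trdn (245 CPM, gap 0.641) and the lowest log2 ratio of Atp2a2 to Pln (gap 0.671). The same library had the lowest Ryr2 and the highest Casq2 and Pln of its group. Its 7SL share, at 23.4%, was the highest of its group, and its 27128 genes with a count were the fewest. Its depth of 49.3 M counts was within the range of the other libraries.

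Jph2 was lowest in sham-vehicle replicate 1 (108 CPM, gap 0.476), which also had the lowest cardiomyocyte marker score of all libraries (9.02). The log2 ratio of Slc8a1 to Atp2a2 was lowest among sham-Oxf libraries in replicate 3 (gap 0.878).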

How the results depend on the processing

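No paired analysis was possible because each library came from a different mouse and the labels give no pairing between groups. The number of members called for the averaged Oxf comparison, 1 of 10 as reported, was 3 with DESeq2 (Casq2, Camk2d and Trdn), 6 with limma voom, 2 with DESeq2 size factors or with at least 10 counts in every library, 0 with no filter, with the clock score, with the cardiomyocyte marker score or with the 7SL share (a covariate chosen after seeing the data), and 0 to 4 without 1 library. For CKD-Oxf against CKD-vehicle it was 1 with DESeq2, 4 with limma voom and 0 to 3 without 1 library. For CKD-vehicle against sham-vehicle it was 1 (Slc8a1) with DESeq2 and with limma voom, and 0 without any 1 library. The number of member pairs that passed was 31 with group means not removed, and 21 without CKD-Oxf replicate 4 (chosen after seeing the data), 22 without sham-Oxf replicate 1 and 24 with upper quartile factors. No relation with mouse number passed under any setting run. The cause of these changes was not tested.

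Over all tested genes the averaged Oxf count of 681 was 2133 with DESeq2, 5307 with limma voom, 161 with no filter, 1422 with at least 10 counts in every library, 0 with the clock score, 314 with the marker score, 144 with the 7SL share and 109 to 3362 without 1 library. For CKD-Oxf against CKD-vehicle the count of 8 was 190 with DESeq2, 3620 with limma voom, 0 with the clock score and 0 to 927 without 1 library. For CKD-vehicle against sham-vehicle the count of 2 was 29 with DESeq2, 55 with limma voom and 0 to 2 without 1 library. With the 7SL share it was 22, and it was 14 for CKD-Oxf against CKD-vehicle. For sham-Oxf against sham-vehicle the count of 0 was 131 with DESeq2, 32 with limma voom, 148 with the 7SL share, 2 with the clock score, 1 with the marker score and 0 to 20 without 1 library. For surgery averaged over gavage the count of 0 was 113 with DESeq2, 125 with limma voom, 42 with the 7SL share, 36 with the marker score and 2 with the clock score.

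Directions reversed in 25 of 571 member fold changes under other settings. With the clock score as covariate these were Hrc for CKD-vehicle against sham-vehicle (-0.021), Atp2a2 (0.087), Ryr2 (-0.021), Cacna1c (-0.19), Jph2 (0.078) and Hrc (0.29) for CKD-Oxf against CKD-vehicle, Pln (0.011) and Hrc (0.25) for sham-Oxf against sham-vehicle, and Atp2a2 (0.18), Cacna1c (-0.017) and Hrc (0.28) for the averaged Oxf comparison. With the marker score they were Hrc for CKD-vehicle against sham-vehicle (-0.000243), Atp2a2 (0.040) and Jph2 (0.11) for CKD-Oxf against CKD-vehicle, and Atp2a2 (0.12) and Slc8a1 (0.046) for the averaged Oxf comparison, and r of Trdn and Hrc became -0.095. With the 7SL share they were Jph2 (0.00597) for CKD-Oxf against CKD-vehicle, Pln (0.23), Casq2 (0.059) and Hrc (0.19) for sham-Oxf against sham-vehicle, Casq2 (-0.058) for CKD-Oxf against sham-Oxf, and Atp2a2 (0.16) and Slc8a1 (0.065) for the averaged Oxf comparison. With upper quartile factors they were Camk2d for sham-Oxf against sham-vehicle (0.013) and Slc8a1 for the averaged Oxf comparison (0.019).

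Leaving out 1 library reversed 17 of 1372 member fold changes, in ranges of -0.11 to 0.036 (Jph2, CKD-Oxf against CKD-vehicle), -0.032 to 0.21 (Atp2a2, sham-Oxf against sham-vehicle), -0.068 to 0.0045 (Camk2d, the same) and -0.059 to 0.051 (Slc8a1, averaged Oxf). It reversed 14 of 224 ratio differences, in ranges of -0.15 to 0.032 and -0.16 to 0.065 (Atp2a2 to Pln, CKD against sham after vehicle and after Oxf), -0.015 to 0.17 and -0.14 to 0.051 (Slc8a1 to Atp2a2, CKD against sham after vehicle, and Oxf against vehicle in CKD hearts), and -0.17 to 0.19 and -0.18 to 0.18 (Trdn to Casq2, sham-Oxf against sham-vehicle and CKD-Oxf against sham-Oxf). For CKD-Oxf against CKD-vehicle the ratio Atp2a2 to Pln ran from 0.27 to 0.48 and Ryr2 to Casq2 from 0.91 to 1.45, both past the threshold only without CKD-Oxf replicate 4.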
